A study of Caenorhabditis elegans with 78 samples.

Results

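Trimethylation of lysine 4 on histone H3 (H3K4me3) was compared between lin-37(n758) mutant and wild-type Caenorhabditis elegans at 26 °C, in 4 of the 78 samples of a chromatin immunoprecipitation sequencing (ChIP-seq) series. The 2 lin-37(n758) and 2 wild-type (N2) libraries each came with a list of H3K4me3 peaks, that is, of intervals in which sequenced DNA was enriched over an input library. Overlapping peaks of the 4 lists were merged into 8660 regions. A region was gained when it had a peak in both lin-37 lists and in neither wild-type list, and lost when the reverse held. There were 409 gained and 161 lost regions. The series compared histone marks of whole first-stage (L1) larvae of wild type, lin-37(n758), lin-35(n745) and lin-15B(n744) at 20 and 26 °C, and its title concerns repression of germline genes in the soma by H3K9me2 of their promoters. For 26 °C, cultures were moved from 20 °C at the fourth larval stage, the adults were bleached, and their embryos hatched at 26 °C without food before the L1 larvae were frozen. Mutants and wild type were handled alike, so both carry the shift to 26 °C and the starvation after hatching. H3K4me3 was immunoprecipitated on an automated instrument and H3K9me2 by hand, from crosslinked and sonicated whole-larva extract. The lin-37 mutation is present in every cell, and in whole larvae a change in the number of cells that carry a mark and a change in the mark per cell cannot be told apart.

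LIN-37 is a subunit of DREAM, a repressor complex that binds the promoters of many cell-cycle and germline genes, and lin-37 is one of the synMuv B genes, which regulate chromatin. H3K4me3 is placed on nucleosomes around the starts of transcribed genes and is widely used as a mark of active promoters. Dimethylation of lysine 9 (H3K9me2) is a mark of repressed chromatin, and in worms it lies mainly on the outer parts of the autosomes, called arms, which are rich in repeats. Mutants of the synMuv B class are known to express germline genes in somatic cells, most strongly at raised temperature. A peak list does not show the state of lin-37 itself, so the genotype labels were not checked here.

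The 2 lin-37 lists at 26 °C held 6842 and 7083 peaks over 6.39 and 5.66 Mb (replicates 1 and 2), and the 2 wild-type lists held 7424 and 6098 peaks over 6.56 and 4.92 Mb. The longest and the shortest list were both wild type, so list length did not separate the genotypes. Median fold enrichment at the summit was 7.42 and 5.75 in the lin-37 lists and 3.69 and 6.90 in the wild-type lists. Wild-type replicate 1 therefore had the most peaks and the lowest enrichment. Because fold is the authors' own value for a peak and differs in scale between libraries, it is used below only within a list, mostly as a rank percentile, the position of a peak's fold among all peaks of its list (100 is the highest). A peak that is missing from a list was not called, which does not show that the mark was absent, and the read depth behind the lists is unknown.

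Most H3K4me3 was called alike in the mutant and in wild type. Of the 8660 regions, 4749 had a peak in all 4 lists and are called shared regions below. The 409 gained regions made up 4.72% of all regions, and 31.4% of the 1303 regions that had no wild-type peak. The 161 lost regions made up 1.86% of all regions, and 12.6% of the 1282 that had no lin-37 peak. Gains therefore outnumbered losses when 2 libraries had to be called against 2. These counts follow from the rule and carry no test, and they depended on single lists. Within the pair of replicate 1, whose deposited files carry a common library code (found in 1 H3K4me3 file of each genotype and temperature), 1023 regions were gained and 1611 lost, while within the pair of replicate 2 there were 1664 gained and 616 lost. The balance of gains and losses thus had opposite directions in the 2 pairs. Losses outnumbered gains where wild-type replicate 1, the longest list, was the only wild-type list used. Leaving out lin-37 replicate 1 or 2 gave 865 or 910 gained and 363 or 320 lost regions. Leaving out wild-type replicate 1 gave 803 gained and 319 lost, and leaving out wild-type replicate 2 gave 459 gained and 1161 lost. What the library code stands for was not stated.

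Regions next to the rule were weak. There were 420 regions with a peak in both lin-37 lists and in 1 wild-type list, and in 371 of them the wild-type peak came from replicate 1. Their median rank percentiles in the lin-37 lists were 20.1 and 24.7, below those of the gained regions. A further 894 regions had a peak in 1 lin-37 list and in no wild-type list, with median ranks of 12.8 and 11.2. Of the 1121 regions with a peak in 1 wild-type list and no lin-37 list, 992 came from replicate 1.

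Gained peaks ranged from the weakest to near the strongest of the lin-37 lists, whereas lost peaks were weak in the wild-type lists. The median fold of the 409 gained regions was 5.79 in lin-37 replicate 1 (1.57 to 44.9) and 3.83 in replicate 2 (1.93 to 28.9). These medians stood at rank percentiles of 44.3 and 34.2, and 176 and 138 of the 409 regions lay above the median peak of the list. The 161 lost regions had a median fold of 2.12 in wild-type replicate 1 (1.38 to 4.31) and 2.97 in replicate 2 (1.59 to 8.23). Their ranks were 23.1 and 14.9 at the median and no higher than 55.1 and 54.1, so that 7 and 1 of the 161 lay above the median peak of the list. Few of the gained peaks were near the calling limit, with a −log10 q under 5 in 9 and 31 of the 409 regions, against 10 and 37 of the 161 lost regions. Shared regions had median ranks of 63.5 and 65.0 in the lin-37 lists and of 67.8 and 60.7 in the wild-type lists. Gained regions were also wider than lost ones, with a median width of 634 bp (263 to 1919 bp) against 425 bp (266 to 1874 bp), and narrower than shared regions (1130 bp). A shared region joins peaks of both genotypes, and a gained or lost region those of 1 genotype only. Merging by itself can therefore make shared regions wider.

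**Figure D1:**
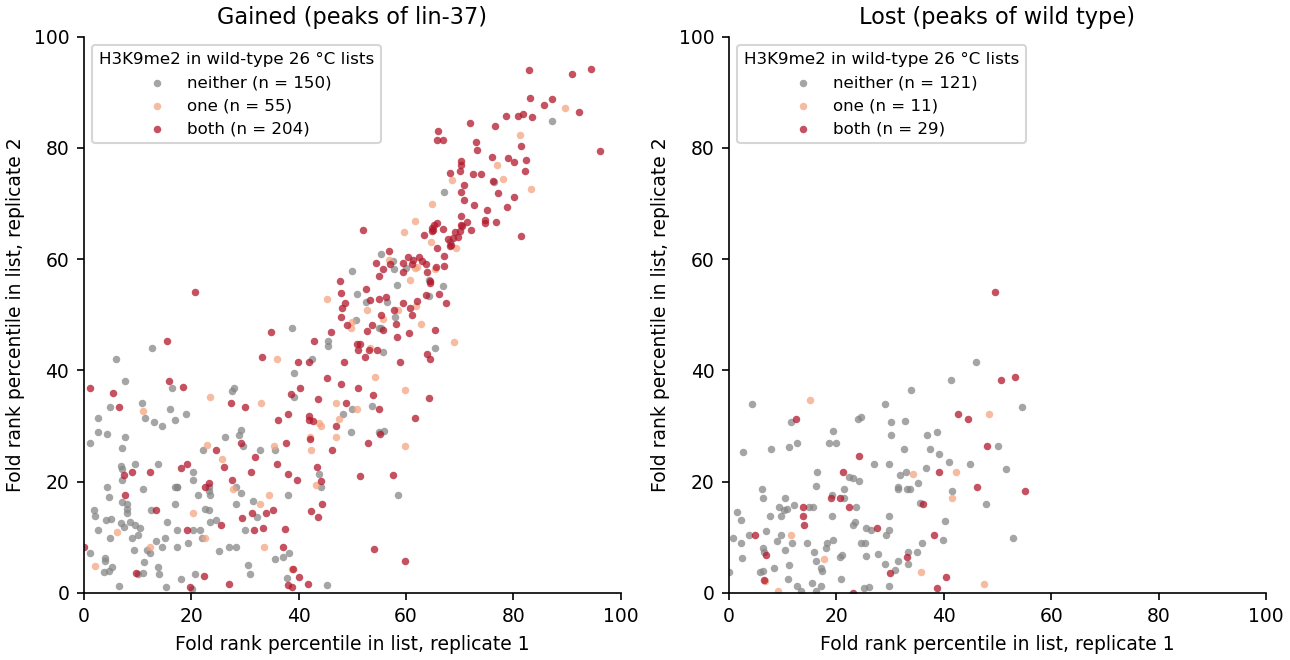
Rank percentile of each region's H3K4me3 fold in replicate 1 (x axis) and replicate 2 (y axis), for the 409 gained regions in the lin-37 26 °C lists (left) and the 161 lost regions in the wild-type 26 °C lists (right), coloured by the number of wild-type 26 °C lists with an H3K9me2 peak in the region. Gained regions reach ranks of 96.1 and 94.3, and their upper part is mostly regions with H3K9me2 in both lists, while lost regions stay at or below 55.1 and 54.1.

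The strongest gained regions had H3K4me3 peaks at rank percentiles of 79.4 or more in both lin-37 lists and no peak in any wild-type list at either temperature. They are given by position in genome build ce10, and no gene was assigned to them because an annotation of that build was not used here. The highest mean rank belonged to II:4470608-4471663 on the left arm of chromosome II, with a fold of 43.1 in lin-37 replicate 1 and 28.9 in replicate 2. At 20 °C the same region had a fold of 16.2 and 9.03 in the lin-37 lists. It carried H3K9me2 in both wild-type lists at 26 °C and in 1 of the 2 lin-37 lists.

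Some of these regions had lost the H3K9me2 call in the mutant. On the right arm of chromosome IV, IV:13450282-13451594 had a fold of 40.2 and 28.0, and its H3K9me2 was called in all 4 wild-type lists of both temperatures and in none of the 4 lin-37 lists. In the centre of chromosome III, III:5155605-5157222 had a fold of 41.2 and 22.3 and the same H3K9me2 pattern. The same held for III:7033981-7034882 (34.1 and 21.5), II:12149913-12150978 (33.0 and 21.96) and, on the X chromosome, X:8147368-8148081 (36.1 and 23.1). These 5 regions also had H3K4me3 in both lin-37 lists at 20 °C and in every lin-15B and lin-35 list.

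Other strong gained regions kept the H3K9me2 call. IV:4258331-4259646 had an H3K4me3 fold of 33.9 and 28.5 and IV:12639916-12640966 a fold of 37.17 and 23.8, and both had H3K9me2 in all 4 lin-37 lists as in all 4 wild-type lists. III:1412859-1414547 held the highest fold of the set in replicate 1 (44.9), with 17.6 in replicate 2. It kept H3K9me2 in all 4 lin-37 lists, and it was called for H3K4me3 in neither lin-35 list at 20 °C. IV:193847-194881, with a fold of 33.99 and 23.9, also kept H3K9me2 in all 4 lists and was called for H3K4me3 in neither lin-37 list at 20 °C. It was the only region of the 12 highest without a lin-37 peak at 20 °C. H3K4me3 and H3K9me2 were therefore called over the same region in the same genotype at several of the strongest gains, in extract from whole larvae.

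Of the 12 gained regions with the highest mean rank, the remaining 2 lacked H3K9me2 in at least 1 wild-type list at 26 °C. III:9321927-9322681 (39.3 and 22.6) had it in 1 list and IV:13686556-13687531 (37.29 and 21.1) in none, although both had it in both wild-type lists at 20 °C. Of the regions whose H3K9me2 call was absent from both lin-37 lists at 26 °C, the next 3 by rank followed below these 12. They were II:9041035-9042356 (30.4 and 21.6), III:13683052-13683944 (32.7 and 18.1) and V:16405108-16406110 (28.8 and 20.5). The widest gained region, II:2078452-2080370 (1919 bp), was weak, with a fold of 3.04 and 2.87.

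The strongest lost regions were weak beside the strongest gains. Most were also narrower than the narrowest of those gains (714 bp), but V:5812262-5813355 was 1094 bp wide. I:1161739-1162417 had the highest mean rank, with a fold of 3.64 in wild-type replicate 1 and 8.23 in replicate 2, and it was not called in the wild-type lists at 20 °C. The next were V:775040-775608 (4.06 and 4.82), V:18673051-18673422 (3.76 and 4.74) and II:8075098-8075436 (4.24 and 4.17). The fifth, II:3567833-3568202 (3.29 and 5.23), was called in all 4 lists of both genotypes at 20 °C. Below it came V:11328767-11329103 (3.51 and 4.07), III:5210831-5211175 (2.93 and 4.74) and V:5812262-5813355 (3.70 and 3.61), followed by III:13160412-13160837 (3.14 and 3.99) and III:11292711-11293072 (3.02 and 4.07). H3K9me2 was mostly called alike in the 2 genotypes at these regions. Of the 10, 5 had H3K9me2 in both wild-type lists at 26 °C, and 4 of the 5 had it in both lin-37 lists too. The widest lost region, V:14951211-14953084 (1874 bp), had a fold of 2.89 and 3.41 and was called in both wild-type lists at 20 °C as well.

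Gained regions lay on every chromosome and mostly on autosome arms, taken here as the outer 30% at each end. Chromosome III held 98 and IV held 88, or 6.43% and 6.34% of all merged regions there, followed by II with 71 (5.02%), V with 62 (4.35%) and I with 62 (3.88%). The X chromosome held 28, which was 2.14% of its regions. Lost regions were spread more evenly, from 25 on V and on X to 30 on IV, and made up 1.62% to 2.16% of the regions of a chromosome. Of the 381 autosomal gained regions 278 lay on arms (73.0%), of which 133 were left and 145 right, against 49.3% of lost, 50.7% of shared and 53.8% of all autosomal regions. The arm share was 59.2% in the 894 other regions without a wild-type peak. Within the pair of replicate 2 the arm share of gains was 58.0%, and the X share of gains, 6.85%, became 17.5%. It was 15.03% without lin-37 replicate 1 and 12.3% without wild-type replicate 1, against 15.1% of all 8660 regions, so the low share on X rested on these lists.

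The X chromosome held few gained regions, and the strongest of them had peaks in all lin-15B and lin-35 lists. X:10475575-10476627 had an H3K4me3 fold of 18.3 and 18.7 in lin-37 and H3K9me2 in all wild-type but no lin-37 lists. X:8410429-8411160 had a fold of 18.5 and 13.5, no H3K9me2 peak in either genotype at 26 °C, and no H3K4me3 call at 20 °C in lin-37.

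**Figure D2:**
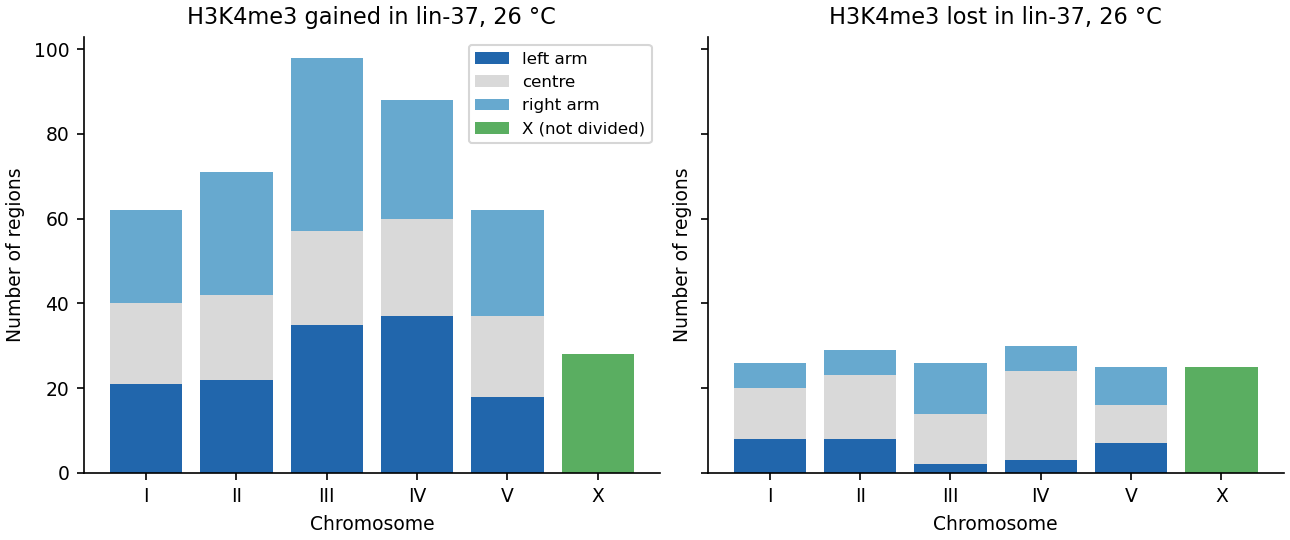
Number of gained (left) and lost (right) H3K4me3 regions on each chromosome, with autosomes divided into left arm, centre and right arm (bar segments) and X undivided. Chromosome III has 98 gained regions and chromosome IV 88, while lost regions number 25 to 30 on each chromosome.

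H3K9me2 of wild type at 26 °C overlapped a larger share of the gained regions than of the other sets, which is given as a description because regions are not replicates. H3K9me2 was called in both wild-type lists in 204 of the 409 gained regions (49.9%), in 1 list in 55 and in neither in 150. The same held for 29 of the 161 lost regions (18.01%), 1014 shared regions (21.4%), 1867 of all regions (21.6%) and 151 of the 894 other regions without a wild-type H3K4me3 peak (16.9%). Among autosomes the share for gained regions ran from 40.3% on V to 56.3% on II. The libraries of H3K9me2 played no part in choosing the regions. Because H3K9me2 and the gains both lay on arms, the shares were also taken within zones. On arms 62.2% of gained regions (173 of 278) had H3K9me2 in both lists, against 38.04% of all arm regions. In the centres the shares were 23.3% (24 of 103) and 8.36%, and on X 25.0% (7 of 28) and 5.96%. Among lost regions they were 32.8% on arms and 10.1% in the centres, and 0 of 25 on X. The share among gained regions was 32.0% within the pair of replicate 1 and 23.7% within the pair of replicate 2. It was 28.8% without lin-37 replicate 1, 34.8% without lin-37 replicate 2 and 35.9% without wild-type replicate 1. It was 27.4% where H3K9me2 had to cover at least 50% of the region.

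H3K9me2 in the gained regions often lay under the H3K4me3 summit. In the 204 regions with H3K9me2 in both wild-type lists, the lin-37 replicate 1 summit fell inside a wild-type 26 °C H3K9me2 peak of replicate 1 in 169 (82.8%) and of replicate 2 in 137 (67.2%). The 29 lost regions with H3K9me2 in both lists had nearly the same shares for the wild-type replicate 1 summit, 82.8% and 65.5%, while in shared regions they were 48.8% and 35.31%. Shared regions are wider than both, so an H3K9me2 peak can overlap them farther from the summit, and the part of width in these shares was not tested.

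Gained regions with wild-type H3K9me2 had stronger and wider H3K4me3 peaks. With H3K9me2 in both wild-type lists the median fold was 9.75 and 5.71 (lin-37 replicates 1 and 2) and the median width 750.5 bp. With H3K9me2 in neither list the medians were 2.84, 2.94 and 534 bp. The 55 regions with H3K9me2 in 1 list lay between them, at 7.39, 4.24 and 648 bp. Median ranks ran in the same order, 55.5, 49.9 and 20.3 in replicate 1, and in replicate 2 they were 49.8, 38.8 and 19.1. Position differed as well, since 87.8%, 83.3% and 46.2% of their autosomal regions lay on arms, and 20 of the 28 gained regions on X belonged to the 150 without H3K9me2. Seen from the other side, H3K9me2 in both wild-type lists was found in 22.6% of the 146 gained regions with a mean rank percentile of 0 to 25 in the lin-37 lists. For ranks of 25 to 50, 50 to 75 and 75 to 100 the shares were 55.4% of 112, 70.8% of 120 and 77.4% of 31. In shared regions of the same ranks the shares were 13.7%, 18.3%, 24.2% and 22.6%. The gap to shared regions was thus widest among the strongest gains.

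**Figure D3:**
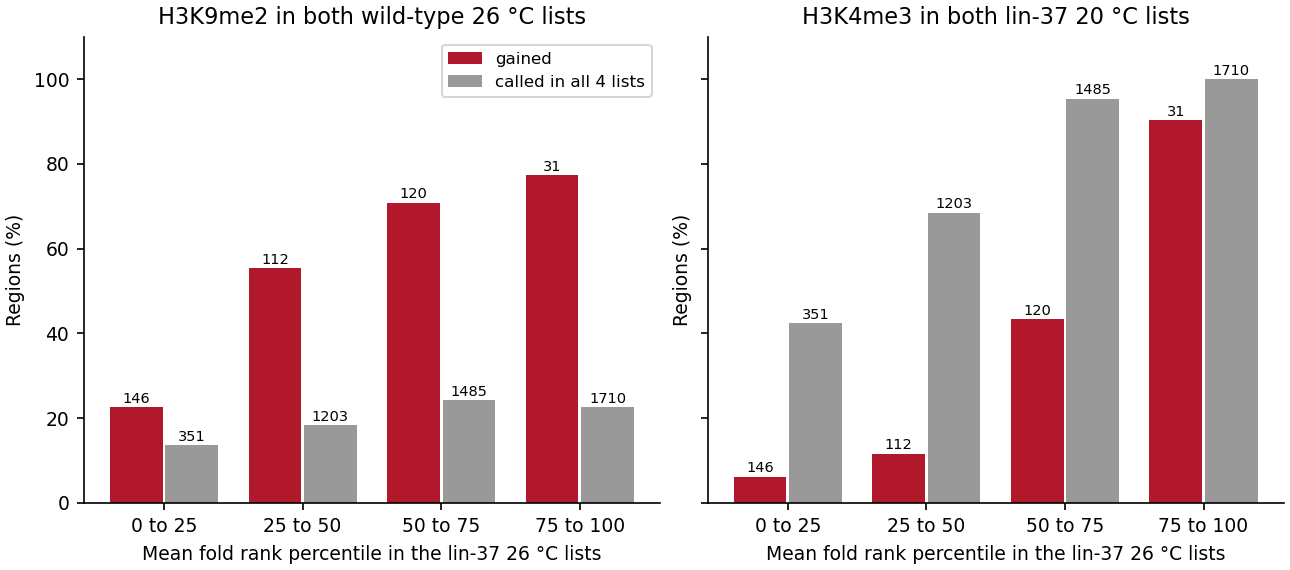
Share of regions (%) with H3K9me2 in both wild-type 26 °C lists (left) and with H3K4me3 in both lin-37 20 °C lists (right), by the mean rank percentile of H3K4me3 fold in the lin-37 26 °C lists, for gained and shared regions, with the number of regions above each bar. The H3K9me2 share of gained regions goes from 22.6% to 77.4% while that of shared regions is 13.7%, 18.3%, 24.2% and 22.6% in the same order.

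Across all 8 H3K9me2 libraries of these 2 genotypes, fewer gained regions carried an H3K9me2 peak in lin-37 than in wild type. In wild type 57.5% and 65.8% of the 409 regions had one at 20 °C, and 62.1% and 51.1% had one at 26 °C. The lin-37 lists gave 43.3% and 35.9% for 20 °C, with 35.9% and 37.4% for 26 °C, and the genotypes did not overlap. The mean was 38.1% ± 3.49 (SD, n = 4) in lin-37 and 59.1% ± 6.33 (SD, n = 4) in wild type, a difference of -21.0 percentage points. The exact permutation test over libraries gave a two-sided p of 0.0286, the smallest that 4 against 4 can give. The Benjamini-Hochberg adjusted p over 4 tests was 0.114. With these 4 tests it could not pass 0.05, because 2 of them compare 2 libraries with 2 and cannot go below 0.333. The adjusted p therefore decides nothing about this difference. Nothing in the labels says that replicates were separate cultures, so these p-values measure the spread between the libraries, which may be technical. The H3K9me2 share over all merged regions was 22.5% to 29.0% in wild type and 18.8% to 23.1% in lin-37, and with it subtracted the difference was -16.1 points. Subtraction in points does not allow for the higher starting share of gained regions, and the change in proportion was not tested. The size of the difference depended on which H3K4me3 lists chose the gained regions. It was -11.2 points without lin-37 26 °C replicate 1 and -11.9 without wild-type 26 °C replicate 1. With regions chosen within the pair of replicate 1 it was -12.9, and within the pair of replicate 2 it was -6.34, where the genotypes overlapped (exact permutation p 0.0571). The covered length gave the same order. H3K9me2 peaks covered 42.7%, 52.1%, 44.6% and 32.8% of the length of gained regions in the wild-type lists (20 °C, then 26 °C) and 31.8%, 23.1%, 25.9% and 26.1% in the lin-37 lists. The lowest wild-type value (32.8%) lay close to the highest lin-37 value (31.8%). Of the length of shared regions they covered 11.1%, 12.8%, 13.2% and 8.29% in wild type. In lin-37 it was 9.35%, 6.42%, 6.81% and 9.04%, and there the genotypes overlapped.

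At lost regions the difference did not exceed the spread between libraries. H3K9me2 was called in 17.4%, 22.4%, 24.2% and 18.6% of them in wild type and in 21.1%, 16.8%, 18.01% and 20.5% in lin-37, and the genotypes overlapped. The means were 20.7% ± 3.18 and 19.1% ± 2.05 (SD, n = 4 each), a difference of -1.55 points with an exact permutation p of 0.457. Subtracting the share over all merged regions turned this difference to 3.35 points (exact permutation p 0.0286, adjusted p 0.0571, each the smallest possible). It was 0.603 points without wild-type 26 °C replicate 2.

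**Figure D4:**
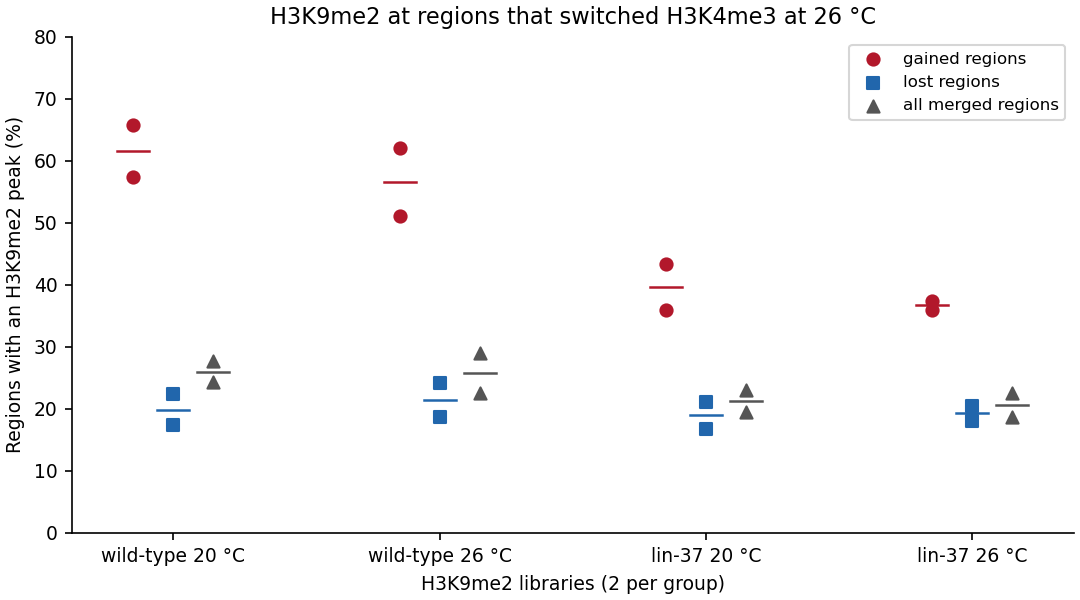
Share of gained, lost and all merged H3K4me3 regions (%) that overlap an H3K9me2 peak, for each of the 8 H3K9me2 libraries of wild type and lin-37 at 20 and 26 °C (points), with the mean of each group of 2 (lines). Gained regions lie between 51.1% and 65.8% in wild type and between 35.9% and 43.3% in lin-37, while lost regions overlap between the genotypes.

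Most gained regions with wild-type H3K9me2 nevertheless kept the call in lin-37 at 26 °C. Of the 204 regions with H3K9me2 in both wild-type 26 °C lists, 130 (63.7%) had it in both lin-37 26 °C lists, 15 in 1 and 59 (28.9%) in neither. H3K9me2 was called in neither lin-37 list in 13.9% of the 1014 shared regions, in 11.3% of the 151 regions that had neither a gain nor a wild-type H3K4me3 peak, and in 1 of the 29 lost regions. Among gained regions the share without H3K9me2 was 23.7% on arms, 58.3% in the centres (14 of 24) and 57.1% on X (4 of 7). The corresponding shares over all merged regions were 11.5%, 25.7% and 14.1%.

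The 59 gained regions without H3K9me2 in lin-37 carried stronger H3K4me3 peaks than the 130 that kept it. Their median fold was 17.1 and 8.01 in lin-37 replicates 1 and 2, against 7.90 and 4.96. In the 15 regions with H3K9me2 in 1 lin-37 list it was 22.5 and 10.7. The H3K9me2 peaks themselves ranked lower in wild type where they were not called in lin-37, with median score ranks of 54.5 and 35.8 in the wild-type 26 °C lists against 77.1 and 66.99 where they were kept. A lower-ranked peak is nearer to the calling threshold, and the part of that in the loss of calls was not tested. Of the 59 regions, 33 had H3K9me2 in neither lin-37 list at 20 °C, against 5 of the 130. This was not counted in shared or in all merged regions. The 59 and the 130 also differed in position, with 74.6% and 94.5% of their autosomal regions on arms.

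The gained regions were scarcely called in wild type at 20 °C and were called in part in lin-37 at 20 °C. The 2 lin-37 20 °C lists, which held 6090 and 5421 peaks, called 139 and 115 of the 409 regions (33.99% and 28.1%). The 2 wild-type 20 °C lists, of 5435 and 6077 peaks, called 9 and 17 (2.2% and 4.16%). Of all merged regions, most of them shared, these lists called 62.8% and 55.9% (lin-37) and 56.3% and 62.0% (wild type), in each list more than of the gained regions. Of the 894 other regions without a wild-type 26 °C peak they called 10.96% and 4.7% (lin-37) and 1.34% and 4.7% (wild type). The lin-37 lists thus called more of the gained regions than of these 894, and the wild-type lists a similar share. The 894 ranked lower in the lin-37 26 °C lists, and the part of rank was not tested. At gained regions lin-37 minus wild type was 27.9 percentage points and the groups did not overlap. However, 2 libraries against 2 allow no exact permutation p below 0.333, which was the value obtained (adjusted p 0.444). The difference was 18.2 points without lin-37 26 °C replicate 1, 13.5 without replicate 2 and 18.4 without wild-type 26 °C replicate 1, and with regions chosen within the pairs it was 13.1 and 13.2. Within the library code shared by files of both genotypes, which at 20 °C is replicate 2 of each, the shares were 28.1% in lin-37 and 4.16% in wild type. Both lin-37 20 °C lists called 102 of the 409 regions, of which 90 were in no wild-type 20 °C list, while 254 regions were in none of these 4 lists. All 4 lists were shorter than the lin-37 lists at 26 °C, and the part of list length in the lower call rate was not tested.

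Rank went with the calls at 20 °C. Both lin-37 20 °C lists called 6.16% of the gained regions with rank percentiles of 0 to 25, and 11.6%, 43.3% and 90.3% of those at 25 to 50, 50 to 75 and 75 to 100. Shared regions of the same ranks were called in 42.5%, 68.5%, 95.4% and 99.9%. The share also went with H3K9me2, at 34.8% (71 of 204) with wild-type H3K9me2 in both 26 °C lists, 23.6% (13 of 55) with 1 and 12.0% (18 of 150) with none. Of the 59 gained regions that had no H3K9me2 in lin-37 at 26 °C, 32 (54.2%) had H3K4me3 in both lin-37 20 °C lists, against 30 of the 130 (23.1%) that kept it.

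Lost regions were less clearly divided at 20 °C, where the same lists called 56.3% and 62.0% of all merged regions in wild type and 62.8% and 55.9% in lin-37. The wild-type 20 °C lists called 54 and 67 of the 161 (33.5% and 41.6%) and the lin-37 20 °C lists 42 and 22 (26.1% and 13.7%). The groups did not overlap, with a difference of -17.7 points and an exact permutation p of 0.333, again the smallest possible (adjusted p 0.444). This separation rested on the choice of lists. The groups overlapped (exact permutation p 0.667) without wild-type 26 °C replicate 1 (-8.46 points), wild-type replicate 2 (-2.84) or lin-37 replicate 2 (-10.5), and in the pair of replicate 1 (-0.621), while the pair of replicate 2 gave -11.7. Within the shared library code (replicate 2 of each) the shares were 13.7% in lin-37 and 41.6% in wild type. Both wild-type lists called 41 of the lost regions and neither called 81, so 41 of the 161 had H3K4me3 in all 4 wild-type lists of both temperatures.

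**Figure D5:**
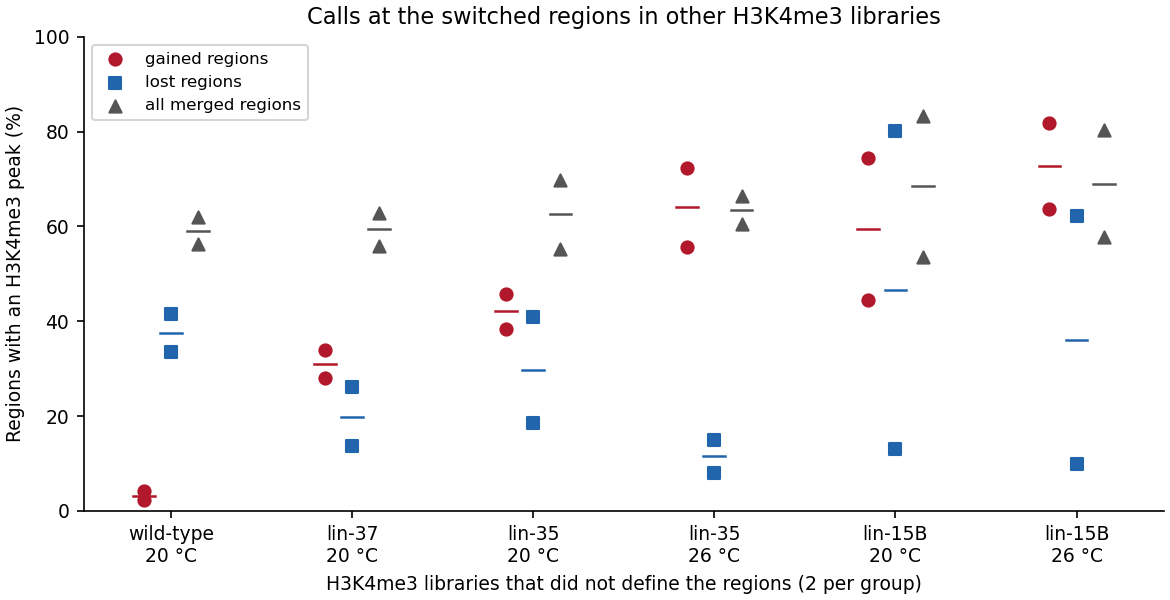
Share of gained, lost and all merged H3K4me3 regions (%) that overlap an H3K4me3 peak in each of the 12 H3K4me3 libraries that did not define the regions (points), with the mean of each group of 2 (lines). Wild-type 20 °C libraries call 2.2% and 4.16% of the gained regions and the lin-37 20 °C libraries 33.99% and 28.1%.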

How the data were processed

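ChIP-seq peak lists of 24 libraries were used, 16 for H3K4me3 (4 genotypes, 20 and 26 °C, 2 libraries each) and 8 for H3K9me2 (lin-37 and wild type). Other samples of the series were not analysed here. Per the submitters' processing notes, Bowtie 1.1.2 aligned the reads to ce10 and MACS2 called the peaks; its version is not given in the sources used here. Every list was called against input, per the labels, at a q cutoff of 0.01 with an extension size of 250 bp (H3K4me3) or a shift size of 125 bp (H3K9me2), per the peak names in the deposited files.

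The deposited H3K4me3 lists give each peak's fold enrichment (a ratio at the summit) and its −log10 p and −log10 q, from the authors' peak caller. For H3K9me2 the deposited broad peaks carry score columns of unstated meaning, and the score served only for ranks within a list. No list holds read counts.

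Sub-peaks with the same start and end were collapsed to the 1 of highest fold, and a region was called in a list at an overlap of at least 1 bp (Python 3.11.15, pandas 2.3.3, numpy 2.4.6). Arms were the outer 30% of each autosome, with the highest peak end as its length. Shares of regions per library were compared by two-sided exact permutation tests over libraries (SciPy 1.17.1), with Benjamini-Hochberg adjustment over 4 tests. The code was tested on simulated lists. Groups and replicate numbers came from the labels. The text names the 12 gained and 10 lost regions of highest mean rank, the 8 highest gained regions whose H3K9me2 was called in both wild-type and neither lin-37 list at 26 °C, the 3 highest gained regions on X, and the widest of each set. The members and lists were chosen with earlier results of these data known. No annotation or genome of build ce10 was used, so the planned gene lists were not counted. Alternatives covered overlap, q, list length, merging, arm size, each library left out and the replicate block; pairs of libraries were added after seeing the data.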

Additional observations from a re-analysis of the deposited data

How the results depend on the processing

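Of 152 values recomputed under alternatives, 116 counted as unchanged. They kept their direction and their side of the threshold, or stayed within the 95% binomial interval or 1.5 times the count. For the tested differences no alternative could bring the adjusted exact permutation p below 0.05, and the smallest obtained was 0.0571. For these differences, unchanged therefore means only that the direction held. The replicate block described below left them unchanged by construction. Gained regions numbered 349 to 403 and lost regions 116 to 187 with a −log10 q of at least 5, equal peak numbers or merging within 500 bp. A 200 bp overlap changed no value (409 gained and 161 lost). Regions are unions of the called peaks and the narrowest was 250 bp wide, so that alternative was no real check. Leaving out 1 library gave 459 to 910 gained and 319 to 1161 lost regions, since fewer lists then have to meet the rule. Within pairs, chosen after seeing the data, 1023 and 1664 regions were gained and 1611 and 616 lost. H3K9me2 in both wild-type 26 °C lists was found in 28.8% to 62.1% of gained and 14.1% to 24.2% of lost regions with 1 library left out, in 32.0% and 23.7% of gained regions within the pairs, in 27.4% of gained and 11.8% of lost regions at 50% coverage, and in 63.3% and 24.8% when 1 list sufficed. The arm share of gains was 62.2% with arms of 25%, 79.5% with arms of 35%, 58.0% in the replicate 2 pair and 62.9% to 72.3% with 1 library left out, and the X share was 17.5% in that pair and 8.06% to 15.03%. The H3K9me2 difference at gained regions stayed negative, from -23.6 to -11.2 points with 1 library left out, -12.9 and -6.34 within the pairs and -19.9 at 26 °C alone. At 50% coverage it was -17.2, and the genotypes overlapped (exact permutation p 0.0571). At lost regions it ran from -2.64 to 0.603 (without wild-type 26 °C replicate 2), and was 3.35 with the share of all regions subtracted and 0.434 in the replicate 1 pair. The H3K4me3 differences at 20 °C ran from 13.5 to 26.7 points at gained and from -20.0 to -2.84 at lost regions with 1 library left out, and within the pairs they were 13.1 and 13.2 at gained and -0.621 and -11.7 at lost regions. The causes of these shifts were not tested. Depth behind the lists is unknown and limits every absence of a peak.

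With a replicate block, libraries of the same number and temperature exchanged within pairs, the differences were by construction unchanged (-21.0, -1.55, 27.9 and -17.7 points) and the exact permutation p became 0.125, 0.625, 0.5 and 0.5, where 4 pairs allow no less than 0.125 and 2 pairs no less than 0.5. No label ties a number to a culture or batch, though the deposited files of 1 of the 2 same-numbered H3K4me3 pairs at each temperature (replicate 1 at 26 °C, replicate 2 at 20 °C) share a library code. Deviations of same-numbered libraries correlated at -0.107 (H3K4me3, 26 °C), -0.035 (H3K4me3, 20 °C), 0.075 (H3K9me2, 26 °C) and -0.107 (H3K9me2, 20 °C) over regions called in all 4 lists. Crossed pairs, added after seeing the data, gave 1607 gained and 578 lost regions (lin-37 replicate 1 with wild-type replicate 2) and 987 gained and 1645 lost (lin-37 replicate 2 with wild-type replicate 1). Region counts and shares have no test, so no block could be fitted to them, and their within-pair values are those given above.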

Other observations

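Of the 409 gained regions, the lin-35 lists called 187 and 157 at 20 °C and 228 and 296 at 26 °C, and the lin-15B lists called 182 and 304 at 20 °C and 260 and 335 at 26 °C. As shares, the lin-35 lists called 45.7% and 38.4% of the gained regions at 20 °C and 55.8% and 72.4% at 26 °C, beside 69.8% and 55.3%, then 60.5% and 66.5%, of all merged regions. The lin-15B lists called 44.5% and 74.3% of them at 20 °C, then 63.6% and 81.9% at 26 °C, beside 53.6% and 83.4%, then 57.7% and 80.4%, of all merged regions. The share of gained regions thus lay below that of all regions in all 4 lists at 20 °C, and above it at 26 °C in all but lin-35 replicate 1. Most of all regions are shared ones. Of the 894 other regions without a wild-type 26 °C peak, the lin-35 lists called 13.3% and 5.82%, then 8.17% and 23.5%. The lin-15B lists called 7.16% and 36.5%, then 12.5% and 41.5%, so all 8 lists called more of the gained regions. The 894 ranked lower in the lin-37 26 °C lists, and the part of rank was not tested. All 8 lin-15B and lin-35 lists called 107 gained regions, with a median rank percentile of 67.03 in the lin-37 lists, and 75 of these had H3K9me2 in both wild-type 26 °C lists. None of the 8 lists called 37 gained regions, with a median rank of 15.2 and with H3K9me2 in 5. How many of all merged regions had a peak in all or in none of the 8 lists was not counted. Taken singly, the 8 lists called 83.85% to 98.69% of the shared regions. Lists differed in length beside these counts, since the lin-15B lists held 5529 and 8412 peaks at 20 °C and 5877 and 8011 at 26 °C, and the lin-35 lists 7279 and 5441 at 20 °C and 5874 and 6318 at 26 °C. In each of these 4 groups the file with the library code of lin-37 and wild-type replicate 1 at 26 °C (replicate 2 of lin-15B at both temperatures, replicate 1 of lin-35 at 20 °C and replicate 2 at 26 °C) was the longer list and called more of the gained regions.

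Calls at the 161 lost regions differed widely between lists of a group. The lin-15B lists called 21 and 129 of them at 20 °C and 16 and 100 at 26 °C, and the lin-35 lists called 66 and 30 at 20 °C and 13 and 24 at 26 °C. These were 13.04% and 80.1%, then 9.94% and 62.1%, in lin-15B and 41.0% and 18.6%, then 8.07% and 14.9%, in lin-35, below the share of all merged regions in each of the 8 lists. Of the 1121 other regions without a lin-37 26 °C peak, the lin-15B lists called 8.83% and 61.2%, then 7.49% and 40.95%. The lin-35 lists called 36.75% and 10.9%, then 5.62% and 8.21%, so each of the 8 lists called more of the lost regions than of these. At lost regions the higher count of each pair again came from the file with that library code. All 8 lists called 1 lost region and none called 17, again without a count over all merged regions. The parts of list length and library code in these counts were not tested.

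Most gained regions lay more than 10 kb from any other gained region. Within 10 kb of each other were 68 of the 409, in 33 runs of at most 3 regions, and 10 of the 161 lost regions, in 5 runs. The median distance to the nearest region of the same set was 64848 bp for gained and 210555 bp for lost regions. The sets differ in size, and clustering was not tested. The 2 runs of 3 gained regions spanned III:3499727-3515378 (15.7 kb), of which 2 had H3K9me2 in both wild-type 26 °C lists, and IV:9078181-9081733 (3.55 kb), of which 0 had it. The median distance to the nearest shared region was 4597 bp for gained, 4871 bp for lost and 4601 bp for all regions.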
